A study of Homo sapiens with 6 samples.

Results

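Messenger RNA of 10 genes that prepare and start DNA replication origins was measured in HCT116 cells with and without oxaliplatin. The genes are ORC1, ORC6, CDC6, CDT1 and GMNN, which act in origin licensing, and CDC45, GINS1, GINS2, GINS3 and GINS4, which act in origin firing. They were picked by symbol, by their role in replication, with earlier results of these data known. Counts of members beside shares of all genes are therefore descriptions, not tests. The members are 10 of the 27942 genes of the deposited table. HCT116 is an established human colorectal carcinoma cell line with wild-type p53 and mutated CTNNB1. The treated group (OXA, n = 3 libraries) received 0.5 µM oxaliplatin, a platinum drug that crosslinks DNA, for 24 h. The untreated group (NT, n = 3 libraries) received no drug, and whether it received a vehicle is not given in the sources used here. Both groups were the same line, grown in RPMI medium with serum. The line, the dose, given by the labels as the IC50, and the time are the only ones compared here. The labels do not say whether the libraries of a group came from separate cultures, so the p-values measure the spread between these libraries, which may be technical.

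A replication origin is licensed in G1, when the origin recognition complex (ORC1 to ORC6) binds DNA and, with CDC6 and CDT1, loads the ring-shaped MCM2-MCM7 helicase. Geminin, encoded by GMNN, binds CDT1 from S phase on and keeps origins from being licensed again. At firing, CDC45 and the GINS complex, whose subunits GINS1 to GINS4 are also called PSF1, PSF2, PSF3 and SLD5, join the loaded MCM ring and form the active helicase. Many genes of this pathway are known targets of E2F transcription factors, which cyclin-dependent kinase inhibitors such as p21 hold back in G1.

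Promoter sequences are shown because the 10 members all had a lower mean mRNA level in OXA and E2F factors are known to act on this pathway. RefSeq promoters (GRCh38.p14, 250 bases before to 50 after the start) could be matched for 9 members, and the promoter of GINS4 was not analysed here. An E2F core word, which is TTCCCGC or TTCGCGC or TTGCCGC or TTGGCGC read on either strand, was found in 6 of these 9 at the main start. The same words were found in 13.0% of all 35116 promoters of the table. This share and those below are per promoter and include further starts of a gene, so the unit differs from that of the members. Each line below gives 100 bases before to 20 bases after the start, 5′ to 3′ on the strand of the gene, with the E2F words in capitals.
ORC1 (chr1:52404404-52404523, minus strand): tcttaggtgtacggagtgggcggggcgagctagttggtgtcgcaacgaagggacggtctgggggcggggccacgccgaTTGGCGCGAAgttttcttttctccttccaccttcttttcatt
CDC6 (chr17:40287779-40287898, plus strand): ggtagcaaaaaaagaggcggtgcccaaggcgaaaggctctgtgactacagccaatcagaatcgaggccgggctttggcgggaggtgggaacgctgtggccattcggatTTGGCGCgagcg
CDT1 (chr16:88803689-88803808, plus strand): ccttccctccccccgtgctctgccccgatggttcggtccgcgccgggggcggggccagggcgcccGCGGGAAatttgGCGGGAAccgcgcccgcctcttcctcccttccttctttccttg
GINS1 (chr20:25407573-25407692, plus strand): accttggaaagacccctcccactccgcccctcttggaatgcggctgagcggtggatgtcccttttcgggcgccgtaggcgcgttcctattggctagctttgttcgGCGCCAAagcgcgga
GINS2 (chr16:85688935-85689054, minus strand): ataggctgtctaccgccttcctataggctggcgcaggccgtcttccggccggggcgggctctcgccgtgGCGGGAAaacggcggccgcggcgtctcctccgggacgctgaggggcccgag
GINS3 (chr16:58392371-58392490, plus strand): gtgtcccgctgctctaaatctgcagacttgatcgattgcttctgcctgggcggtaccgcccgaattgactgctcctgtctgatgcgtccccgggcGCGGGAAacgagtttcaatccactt

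In ORC1 the capitals are a pair of overlapping words, at -22 to -16 and at -19 to -13 from the start, where the first base of the transcript is 1. The first of them also overlaps a CCAAT word, read as ATTGG at -23 to -19. CDT1 has 2 separate words, at -35 to -29 and at -23 to -17. GINS2 has 1 word at -31 to -25, and that of GINS3 spans the start, from -5 to 2. The words of GINS1, at 6 to 12, and of CDC6, at 9 to 15, lie inside the transcript. With only the bases before the start searched, 3 of the 9 promoters kept a word, and 10.9% of all promoters did. GMNN has no word at its main start, but has 1 at -79 to -73 from a second RefSeq start. ORC6 and CDC45 have none of these words at any listed start. Other forms of the E2F site were not searched, so a promoter without these words may hold another form. The windows of GMNN, ORC6 and CDC45 are shown for comparison.
GMNN (chr6:24775313-24775432, plus strand): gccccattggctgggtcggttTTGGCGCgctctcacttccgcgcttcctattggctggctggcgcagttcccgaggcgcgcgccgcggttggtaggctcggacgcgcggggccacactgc
ORC6 (chr16:46689559-46689678, plus strand): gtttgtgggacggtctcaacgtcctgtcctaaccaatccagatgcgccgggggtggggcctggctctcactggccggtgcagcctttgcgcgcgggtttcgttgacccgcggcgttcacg
CDC45 (chr22:19479820-19479939, plus strand): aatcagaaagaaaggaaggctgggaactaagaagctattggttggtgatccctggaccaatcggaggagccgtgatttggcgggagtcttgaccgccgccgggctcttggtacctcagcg

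The CHR words TTTGAA and TTCGAA, which mark genes of late cell cycle phases, were in none of the 9 promoters and in 16.4% of all. CCAAT, on either strand, was in 6 of the 9 at the main start and in 34.6% of all. A word is a description of the sequence and not a measured binding site. Among the other ORC genes, the promoter of ORC3 held 1 E2F word, at -12 to -6, and those of ORC2, ORC4 and ORC5 held none.

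Library totals lay between 32979521 and 40967880 counts. All 10 members passed the filter on low counts, which left 13727 genes. Their raw counts lay between 576 and 7065 in a library, so counting error at a member's lowest count was between 1.82% and 4.17% and smaller than the spread between libraries. Of 10 colon epithelium markers, 7 passed the filter (CDX1 was at 0 in every library, and CEACAM5 and LGALS4 had at most 3 counts), and their summed level was 2160 to 3100 CPM, counts scaled to a common library total, in NT and 3510 to 4150 in OXA. None of the 7 passed the test without the replicate block: KRT8, KRT18, KRT19 and CDX2 had log2 differences of 0.47, 0.31, 1.29 and 0.24, and EPCAM, CDH1 and VIL1 had -0.040, -0.20 and -0.38. With the block, KRT8, KRT18 and KRT19 were called higher and CDH1 lower. The part of these genes in the members' values was not tested. The 18 markers of fibroblasts, endothelium and leukocytes summed to at most 9.85 CPM in every library, and apart from COL1A1 none had more than 29 counts. The NT library numbered 1 stood apart from the other NT libraries by GC content: its median log2 difference from them went from 0.219 over 4727 genes with a GC content under 45% to -0.93 over 2036 genes at 60% or more. For OXA library 1 the same medians were 0.108 and -0.34.

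In OXA, 7 of the 10 members fell, 4 of the 5 licensing genes (ORC1, ORC6, CDC6 and GMNN) and 3 of the 5 firing genes (GINS1, GINS2 and GINS3). None rose. The test was edgeR's quasi-likelihood test on the raw counts, with p-values adjusted by Benjamini-Hochberg over all genes tested and a threshold of 0.05. By this rule 2.29% of all genes tested were lower in OXA and 2.78% were higher. The median log2 fold change of the 10 members was -0.73, with a range of -0.94 to -0.35, and that of all genes tested was 0.023. The licensing genes had a median of -0.80 and the firing genes one of -0.65. In 9 of the 10 members every OXA library lay below every NT library, which was the case for 14.4% of all genes tested, and CDT1 was the exception. In these libraries, fewer cells in the cell cycle phase that expresses a gene and less of its RNA per cell cannot be told apart.

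**Figure D1:**
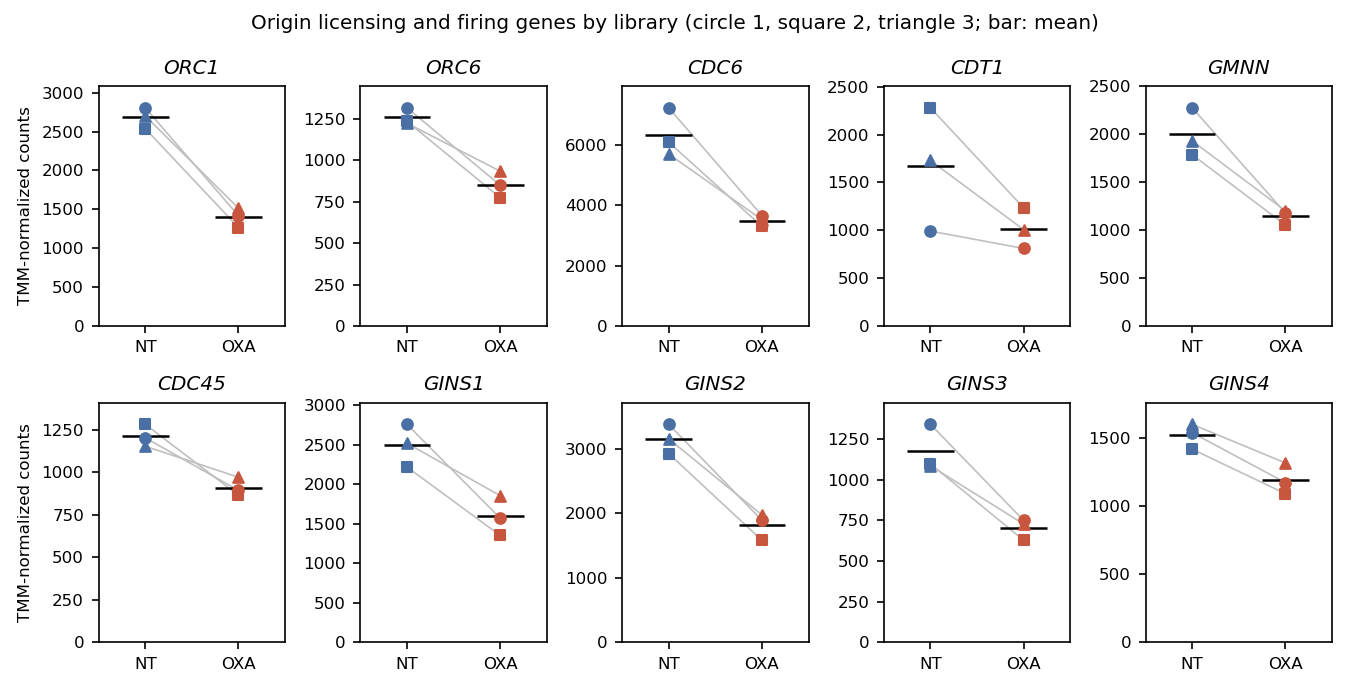
TMM-normalized counts (y axis, from 0) of the 10 members in the NT and OXA libraries (x axis). Each point is a library, grey lines join libraries of the same number and black bars are group means (n = 3). All lines slope down, and only for CDT1 do the points of the groups share a range, with NT library 1 at 992 and OXA library 2 at 1234.

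The replicate numbers of the libraries pair them in the data, as set out with the processing. With the replicate number as a block, all 10 members were called lower, where 10.9% of all genes tested were lower and 12.1% higher. In each of the 3 numbered pairs the OXA value was the lower for each of the 10 members. The share of all genes tested for which this held was not counted. It cannot be below 14.4%, the share with every OXA library below every NT library. DESeq2 called 8 members lower, adding CDC45, and none higher, against 4.23% of the genes it tested called lower. When the fold also had to exceed 1.5, 6 members passed, all those above but ORC6, against 1.44% of all genes tested. At an unadjusted p under 0.05, edgeR had all 10 lower and none higher, against 11.1% of all genes tested lower.

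ORC1, the largest subunit of the origin recognition complex and the one whose amount is known to follow the cell cycle, had the largest fold change of the 10 (ENSG00000085840, chr1:52372829-52404423, minus strand, GRCh38). Its normalized counts were 2806, 2538 and 2702 in NT libraries 1 to 3 and 1418, 1266 and 1515 in OXA libraries 1 to 3. Every NT library lay well above every OXA library. The means were 2682 ± 135 and 1400 ± 125 (SD, n = 3), a level 47.8% lower in OXA (log2 fold change -0.94 with a standard error, SE, of 0.101, edgeR adjusted p = 0.00451). ORC1 was the member that stayed past the threshold whichever single library was left out, with edgeR adjusted p-values of 0.00158 to 0.0411. Its rank was less stable. CDT1 had the larger fall without NT library 1 (log2 fold change -0.979 against -0.904) and without OXA library 2 (-0.875 against -0.870).

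ORC6, the smallest subunit of the complex, fell less (ENSG00000091651, chr16:46689643-46698394, plus strand). It had 1317, 1235 and 1224 normalized counts in NT and 849, 774 and 934 in OXA. The groups did not overlap and the NT libraries lay close together. The means were 1258 ± 50.8 and 852 ± 79.9 (SD, n = 3), with a log2 fold change of -0.56 (SE 0.108, edgeR adjusted p = 0.0296). The call held without NT library 1 and was lost without NT library 2, NT library 3 or any of the OXA libraries (edgeR adjusted p = 0.0636 to 0.150).

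CDC6, the ATPase that joins the bound complex and is needed to load the MCM ring, had the highest counts of the 10 (ENSG00000094804, chr17:40287879-40304657, plus strand). Its normalized counts were 7222, 6085 and 5688 in NT and 3655, 3296 and 3520 in OXA. The OXA libraries lay close together, and NT library 1 was the highest of the 6. The means were 6332 ± 796 and 3490 ± 181 (SD, n = 3), a fall of 44.9% (log2 difference of -0.86 with an SE of 0.110, edgeR adjusted p = 0.00825). The edgeR adjusted p passed 0.05 when either of the first 2 OXA libraries was left out, to 0.0567 for library 1 and 0.0519 for library 2.

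CDT1, which brings the MCM ring to the origin, did not pass the test (ENSG00000167513, chr16:88803789-88809258, plus strand). Its normalized counts were 992, 2281 and 1730 in NT and 810, 1234 and 1006 in OXA. NT library 1 lay below OXA libraries 2 and 3, so the groups overlapped, while within each numbered pair OXA was the lower, by log2 differences of -0.29, -0.89 and -0.78. The means were 1668 ± 647 and 1017 ± 212 (SD, n = 3), with a log2 fold change of -0.71 and the largest standard error of the 10, 0.292 (edgeR adjusted p = 0.210). With the replicate block the edgeR adjusted p was 0.0178 (log2 fold change -0.66), and without NT library 1 it was 0.0119 (log2 fold change -0.98). Without both libraries numbered 1, a comparison added after the data had been seen, it was 0.0619 (log2 fold change -0.84).

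The GC content of CDT1 over its annotated transcripts, 64.86%, lay at percentile 96.6 of all genes tested, while the other 9 members lay between 41.46% and 51.72%. NT library 1 differed from NT libraries 2 and 3 by -1.0 on the log2 scale for CDT1 and by -0.016 to 0.297 for the other members. OXA library 1 differed from OXA libraries 2 and 3 by -0.46 for CDT1. With the trends on transcript GC content and length taken out of each library, an alternative added after the data had been seen, CDT1 stood at a log2 difference of -0.94 (edgeR adjusted p = 0.000133). All 10 members were then called lower, where 11.3% of all genes tested were. The other genes of the pathway lists with a GC content of at least 60% were RECQL4, FZR1, LRWD1 and E2F1, with NT library 1 differences of -1.45, -1.42, -1.05 and -0.33.

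**Figure D2:**
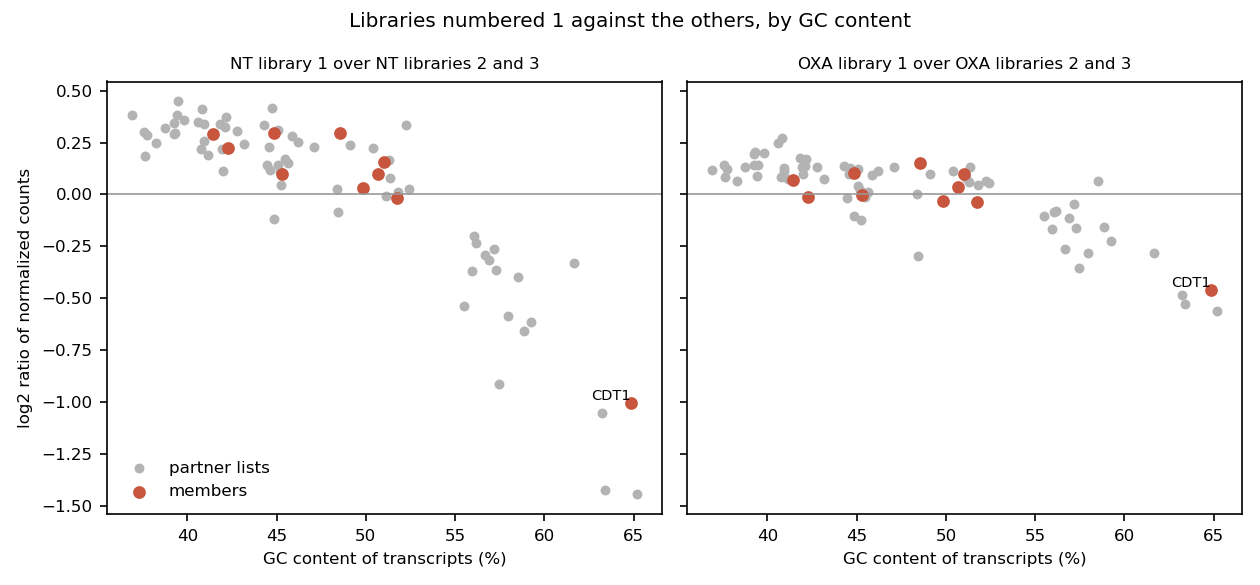
log2 ratio of normalized counts in library 1 to the mean of libraries 2 and 3 (y axis), for NT on the left and OXA on the right, against the GC content of each gene's transcripts in percent (x axis). Each point is a gene of the members (red) or of the partner lists (grey), and CDT1 is the red point at 64.86% GC, at -1.0 in NT and -0.46 in OXA.

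GMNN, the gene of the CDT1 inhibitor geminin, fell (ENSG00000112312, chr6:24774931-24786099, plus strand). It had 2274 normalized counts in NT library 1, 1785 in NT library 2 and 1930 in NT library 3, against 1178, 1052 and 1200 in OXA. The groups did not overlap, and NT library 1 was again the highest. The means were 1997 ± 251 and 1144 ± 79.9 (SD, n = 3), a level 42.7% lower in OXA (log2 difference of -0.80 with an SE of 0.120, edgeR adjusted p = 0.0130). The call was lost without NT library 3 or any of the OXA libraries (edgeR adjusted p = 0.0511 to 0.0795).

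CDC45, the helicase partner that is recruited as an origin fires, did not pass the test (ENSG00000093009, chr22:19479457-19520612, plus strand). It had 1204, 1283 and 1154 normalized counts in NT and 895, 866 and 972 in OXA. The groups did not overlap, and the spread within each was small. The means were 1214 ± 65.1 and 911 ± 55 (SD, n = 3), with a log2 fold change of -0.41 (SE 0.101, edgeR adjusted p = 0.0599). CDC45 was past the threshold with the replicate block (edgeR adjusted p = 0.0226), in DESeq2 (adjusted p = 0.0288) and without NT library 1 (edgeR adjusted p = 0.0415).

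The 4 GINS genes, whose products form 1 complex of equal parts, were each lower in mean in OXA, and 3 of them passed the test. GINS1 (ENSG00000101003, chr20:25391008-25452700, plus strand) had 2756, 2216 and 2516 normalized counts in NT and 1569, 1352 and 1854 in OXA. Its means were 2496 ± 271 and 1592 ± 252 (SD, n = 3), with a log2 fold change of -0.65 (SE 0.140, edgeR adjusted p = 0.0429). The call held without NT library 1 and was lost without NT library 2, NT library 3 or any of the OXA libraries (edgeR adjusted p = 0.0567 to 0.176), without both libraries numbered 1 (edgeR adjusted p = 0.128) and with the authors' gene-specific factors (edgeR adjusted p = 0.0537). OXA library 3 was the highest treated library for this gene.

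GINS2 (ENSG00000131153, chr16:85676198-85690073, minus strand) had 3384, 2930 and 3158 normalized counts in NT and 1895, 1583 and 1978 in OXA. The groups were far apart, with means of 3157 ± 227 and 1819 ± 208 (SD, n = 3). Its log2 fold change of -0.80 (SE 0.113, edgeR adjusted p = 0.0111) was the largest fall of the firing genes, and 5 of the 6 fits that leave out a library kept the call. The exception was the fit without OXA library 1 (edgeR adjusted p = 0.0693). GINS3 had the larger fall without NT library 3 (log2 fold change -0.83 against -0.8285) and with the authors' gene-specific factors (-0.737 against -0.688).

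GINS3 (ENSG00000181938, chr16:58295080-58406147, plus strand) had the lowest mean counts of the 10, with 1341, 1097 and 1086 normalized counts in NT and 750, 628 and 728 in OXA. NT library 1 was the highest, and no OXA library reached the NT range. The means were 1175 ± 144 and 702 ± 64.9 (SD, n = 3), with a log2 fold change of -0.74 (SE 0.129, edgeR adjusted p = 0.0220). The call was lost without NT library 3 or any of the OXA libraries (edgeR adjusted p = 0.0561 to 0.105).

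GINS4 (ENSG00000147536, chr8:41529218-41545030, plus strand) had 1542, 1421 and 1603 normalized counts in NT and 1175, 1094 and 1320 in OXA. The groups did not overlap, although OXA library 3 and NT library 2 were close. The means were 1522 ± 93.0 and 1196 ± 114 (SD, n = 3), and the log2 fold change, -0.35 (SE 0.109, edgeR adjusted p = 0.114), was the smallest of the 10. Leaving out any 1 library gave no call, while the replicate block gave an edgeR adjusted p of 0.0164. Without NT library 2 the fall of CDC45 was the smaller (log2 fold change -0.404 against -0.426 for GINS4). Exons of CDC45 and of the 4 GINS genes share bases with genes on the other strand (for GINS1 with NINL and for GINS2 with GSE1). The kit keeps strand, but the strand setting of the count is not given in the sources used here, so reads of such a partner cannot be told apart from reads of the member there.

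The calls depended on which library was left out, for the members and for all genes alike. Without NT library 1, 9 members were called lower (4.11% of all genes tested), without NT library 2 it was 5 (1.05%), and without NT library 3 it was 3 (0.498%). Without OXA library 1, 1 member was called (0.136% of all genes tested), without OXA library 2 it was 2 (0.231%), and without OXA library 3 it was 3 (0.483%). Without both libraries numbered 1, 5 members were called, which were ORC1, CDC6, GMNN, GINS2 and GINS3 (1.19% of all genes tested). The log2 fold change was below 0 for each of the 10 members in each fit tried.

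Whether the members moved by equal amounts was asked with 7 log2 ratios per library, tested by exact two-sided permutation, for which the smallest p that 3 against 3 libraries can give is 0.1. None of the 7 could therefore reach 0.05, and after Benjamini-Hochberg adjustment over the 7 none was below 0.233. The ratio of ORC1 to ORC6 was 1.09, 1.04 and 1.14 (log2) in NT and 0.74, 0.71 and 0.70 in OXA. It was lower in each OXA library than in each NT library, with a mean difference of -0.38 and an SD of 0.061 over the 3 numbered pairs (exact permutation p = 0.1, adjusted p = 0.233).

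The ratio of ORC1 to the mean of ORC2 to ORC5, the subunits of the complex outside the member list, differed most. It was 0.34, 0.55 and 0.54 (log2) in NT and -0.47, -0.41 and -0.32 in OXA, so every OXA value lay below every NT value. The difference was -0.88 with an SD of 0.083 over the pairs (exact permutation p = 0.1, adjusted p = 0.233). For ORC6 against the same 4 genes the ratio was -0.75, -0.49 and -0.61 (log2) in NT and -1.21, -1.12 and -1.02 in OXA, again without overlap (difference -0.50, SD over the pairs 0.12, exact permutation p = 0.1, adjusted p = 0.233).

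The ratio of CDT1 to its inhibitor's gene, GMNN, gave no direction. It was -1.2, 0.35 and -0.16 (log2) in NT and -0.54, 0.23 and -0.25 in OXA. The mean difference was 0.15 with an SD of 0.44 over the pairs (exact permutation p = 0.9), and without NT library 1 it was -0.29. The ratio of CDC6 to CDT1 was 2.87, 1.42 and 1.72 (log2) in NT and 2.17, 1.42 and 1.81 in OXA, and it likewise turned from -0.20 (exact permutation p = 0.9) to 0.23 without that library. Both ratios carry the low CDT1 value of NT library 1.

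The 2 ratios tested between the firing genes, both against means of GINS genes, differed little between the groups. Single pairs of GINS genes were not tested, and GINS2 and GINS4 had log2 fold changes of -0.80 and -0.35. CDC45 to the mean of the 4 GINS genes was -0.80, -0.47 and -0.74 (log2) in NT and -0.51, -0.35 and -0.50 in OXA. It was higher in OXA in 3 of 3 pairs, by 0.22 with an SD of 0.084, but the groups overlapped (exact permutation p = 0.3, adjusted p = 0.42). GINS3 to the mean of the other 3 GINS genes was -0.86, -0.93 and -1.11 (log2) in NT and -1.02, -1.08 and -1.22 in OXA. It was lower in 3 of 3 pairs, with a difference of -0.14 and an SD of 0.024, and the groups overlapped as well (exact permutation p = 0.3, adjusted p = 0.42).

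**Figure D3:**
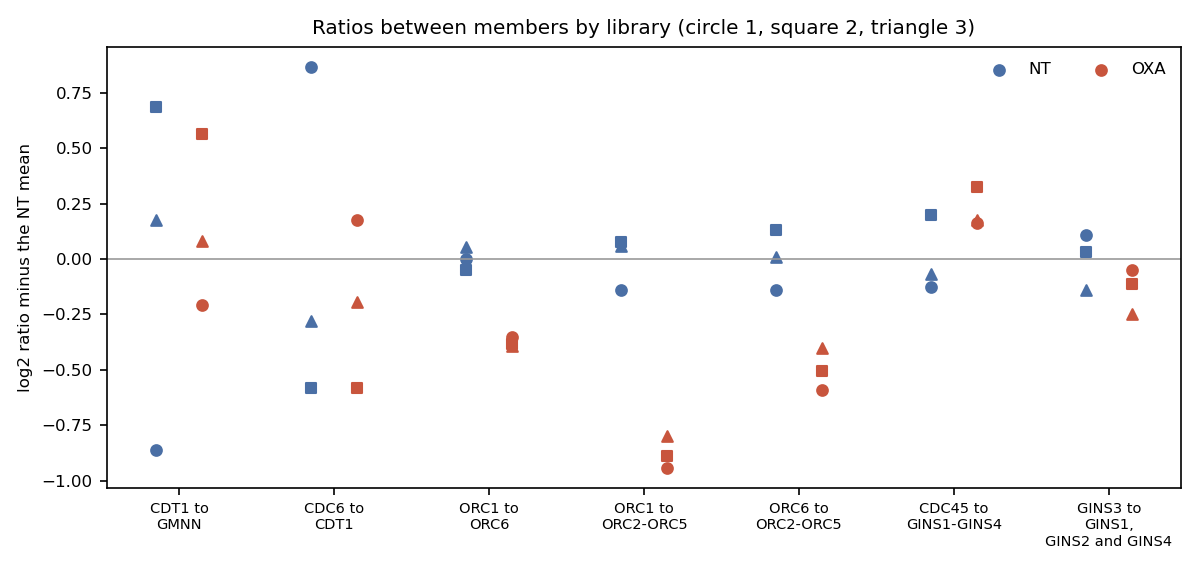
log2 ratios between members in each library, set to the mean of the NT libraries (y axis), for the 7 ratios tested (x axis), with NT in blue and OXA in red. The 3 ratios with ORC1 or ORC6 against other ORC subunits have no shared range between the groups, while the ratios with CDT1 spread most within a group.

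Levels of different genes can be set side by side only per transcript length, here as CPM per kb of the representative transcript. These values were not corrected for GC content. In NT the order began with GMNN (43.9 ± 5.53 CPM per kb, SD, n = 3), CDC6 (38.6 ± 4.85), GINS2 (33.4 ± 2.40), ORC1 (23.9 ± 1.2) and ORC6 (21.7 ± 0.874). After them came GINS1, CDC45, CDT1 (17.4 ± 6.75), GINS3 and GINS4 (11.2 ± 0.685). Of the 9 pairs of neighbours in this order, the library ranges were apart for GINS2 and ORC1 and for GINS3 and GINS4, and overlapped for the other 7. The place of CDT1 differed between the NT libraries. It lay below GINS4 in NT library 1 (10.3 against 11.4 CPM per kb) and above ORC1 in NT library 2 (23.8 against 22.6). In OXA the first 3 and the last 3 genes were the same, at 25.2 ± 1.76 CPM per kb for GMNN and 8.82 ± 0.844 for GINS4. ORC1, the fourth in NT, was at 12.5 ± 1.12 CPM per kb in OXA, which placed its mean seventh, after ORC6 (14.7 ± 1.37), CDC45 (13.5 ± 0.813) and GINS1 (13.4 ± 2.11). Its OXA range, 11.3 to 13.5, overlapped those of these 3 genes and of CDT1. Within each OXA library, however, ORC1 lay below ORC6, CDC45 and GINS1. The OXA range of ORC6, 13.3 to 16.1, lay above that of CDT1, 8.45 to 12.9. The order of these genes was not tested. Of the neighbours in the OXA order, GMNN and CDC6 and also GINS2 and ORC6 had ranges apart, and the other 7 pairs overlapped.

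Genes that work beside the members were read from lists written from general knowledge, with earlier results of these data known. In these lists, fell and rose mean called lower or higher by edgeR without the replicate block. Over all genes tested, 2.29% were lower and 2.78% higher without the block, and 10.9% and 12.1% with it. The counts of the lists beside these shares are descriptions, not tests. Of 13 licensing partners, 4 fell and none rose (median log2 fold change -0.40), and all 4 were subunits of the MCM ring. MCM6 moved by -1.01 on the log2 scale (SE 0.130, edgeR adjusted p = 0.00845), MCM4 by -0.82 (edgeR adjusted p = 0.00365), MCM3 by -0.60 (edgeR adjusted p = 0.0139) and MCM7 by -0.54 (edgeR adjusted p = 0.0246). MCM2, at -0.56 (edgeR adjusted p = 0.113), and MCM5, at -0.61 (edgeR adjusted p = 0.191), did not pass, and NT library 1 lay below the other NT libraries for both, with log2 differences of -0.58 and -0.91. With the replicate block all 6 MCM genes, and 8 of the 13 partners, were called lower.

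None of ORC2, ORC3, ORC4 and ORC5 passed the test in edgeR or DESeq2, and at an unadjusted p under 0.05 there was none in either direction. Their log2 fold changes were 0.12, -0.28, -0.036 and -0.091, with edgeR adjusted p-values of 0.637, 0.299, 0.899 and 0.745, and in none did the groups stand apart. ORC3 alone was called lower with the replicate block (edgeR adjusted p = 0.0370).

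Of 14 firing partners, 4 fell and none rose (median -0.42, edgeR). They were TICRR, which with TOPBP1 brings CDC45 to the loaded helicase (log2 difference of -0.71 with an SE of 0.0946, edgeR adjusted p = 0.0094), MCM10, which is needed for the helicase to start (-0.75, edgeR adjusted p = 0.0153), WDHD1, which links the helicase to DNA polymerase alpha (-0.57, edgeR adjusted p = 0.0395), and TOPBP1 itself (-0.61, edgeR adjusted p = 0.0399). CDC7, the kinase that acts on the MCM ring at firing, was at -0.60 and did not pass without the replicate block (edgeR adjusted p = 0.0723), and passed with it (edgeR adjusted p = 0.00822). The block called 8 of the 14 lower, CDC7 among them.

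Of 12 genes that act in, or inhibit, the protein degradation around licensing and relicensing, 2 fell and none rose (median 0.040, edgeR). DTL, which directs the ubiquitin ligase that removes CDT1 in S phase, moved by -0.97 on the log2 scale (SE 0.138, edgeR adjusted p = 0.0112). FBXO5, an inhibitor of the anaphase-promoting complex, through which geminin is degraded, moved by -0.67 (SE 0.152, edgeR adjusted p = 0.0488). The replicate block called 4 lower and 1 higher.

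**Figure D4:**
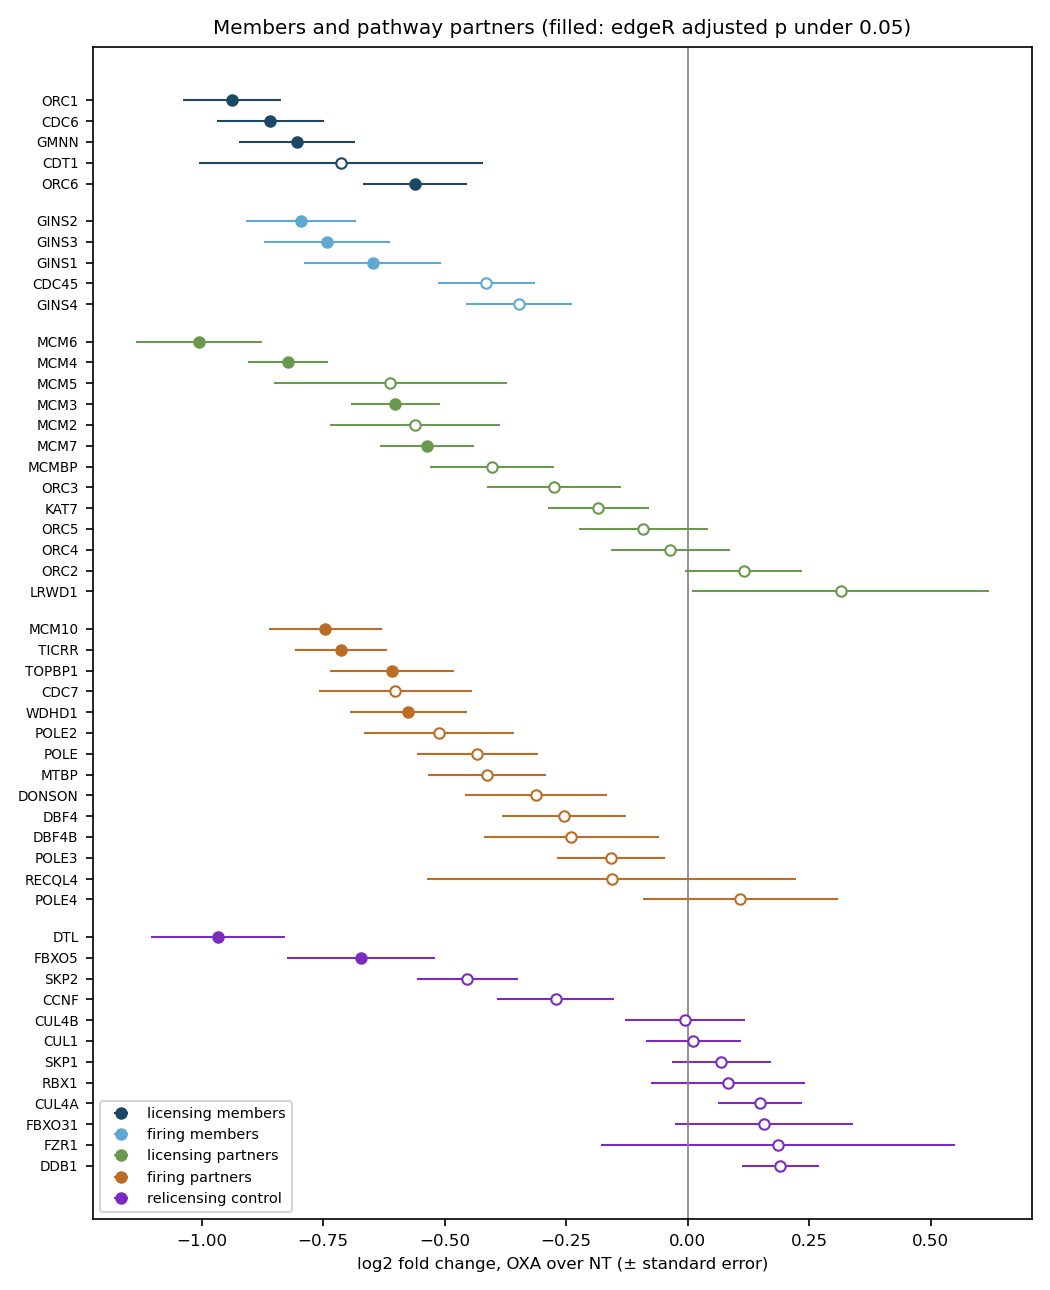
log2 fold change of OXA over NT with its standard error (x axis) for the members and for 3 lists of partner genes (y axis), filled where the edgeR adjusted p was under 0.05. ORC1 (-0.94) and CDC6 (-0.86) lead the licensing members and MCM6 (-1.01) and DTL (-0.97) their partners. No gene shown was called higher in this fit, and the points above 0, such as LRWD1 at 0.31, are not filled.

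Of 16 genes that control entry into S phase, 6 fell and 1 rose (median -0.23). CDKN1A, which encodes the kinase inhibitor p21 and is a target of p53, had 4235, 5143 and 6050 normalized counts in NT and 40181, 41316 and 35832 in OXA (log2 difference of 2.93 with an SE of 0.148, edgeR adjusted p = 0.000445). E2F1, which encodes an E2F activator, had 924, 1206 and 1123 normalized counts in NT and 441, 529 and 544 in OXA (log2 difference of -1.10 with an SE of 0.143, edgeR adjusted p = 0.00858). CCNE2, the gene of a cyclin E, moved by -1.17 on the log2 scale (edgeR adjusted p = 0.00615). For all 3 genes the groups stood well apart. Of 12 genes of G2 and mitosis, 2 fell, TTK at -0.56 (edgeR adjusted p = 0.0376) and CENPF at -0.46 (edgeR adjusted p = 0.0485), none rose, and the median was -0.22. With the replicate block 6 of these 12 were called lower. The part of cell cycle phase in the members' values was not tested.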

How the data were processed

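Poly(A) RNA of 6 HCT116 libraries (0.5 µg of total RNA each, Illumina TruSeq stranded kit, paired reads of 100 bases) was sequenced, 3 from NT and 3 from OXA cells, with groups and replicate numbers taken from the labels. The authors mapped reads to GRCh38 with STAR. The submitters' processing notes list Trimmomatic 0.32, STAR 2.7.5b, RSEM 1.3.3 and DESeq2 2.13, with no role stated. RSEM quantifies reads per gene, but whether it made the deposited counts, and with which annotation, is not given in the sources used here. The authors deposited raw counts per gene, which were used as they stand, and a normalized signal, the count divided by a factor that differs between genes as well as libraries, which served for 1 alternative. The 10 members and the lists were chosen with earlier results of these data known.

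Genes passing filterByExpr (minimum count 10, minimum total count 15) were normalized by TMM and tested by the quasi-likelihood test of edgeR 4.0.16 in R 4.3.3, and p-values were adjusted by Benjamini-Hochberg over 13727 genes (alternatives used DESeq2 1.42.0 and limma 3.58.1). Normalized counts are counts scaled to the mean TMM library size. The standard error is the absolute log2 fold change divided by the square root of F. Since PCR copies could not be told from molecules, the true error exceeds the counting error given. The steps were tested on simulated data. Gene positions, lengths and GC content (known for 99.6% of the genes tested) came from GENCODE on GRCh38. All members are named, as are, of each partner list, the 3 called genes with the smallest p (all where fewer), CDKN1A, E2F1, MCM2 to MCM7 and ORC2 to ORC5. CDC7 and TOPBP1 were added after their values were seen.

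Deviations from the group means, taken across the tested genes, were shared by NT and OXA libraries of 1 number (correlations 0.48, 0.47 and 0.26, against -0.41 to 0.078 for other pairs; limit 0.1). The numbers come from the labels, which do not say what they stand for. The replicate block is therefore given beside a result wherever a call changes under it or a count shifts by over 1.5 times. Alternatives were other normalization factors, filters and tools, the block and each library left out; added after the data had been seen were GC and length trends, the authors' gene-specific factors and leaving out both libraries numbered 1.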

Additional observations from a re-analysis of the deposited data

How the results depend on the processing

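No member changed sign under any alternative run. The number of members called lower, 7, lay between 1 and 9 with each library left out. Depth set no limit for the members, whose lowest raw count was 576. Over all genes tested, 315 were lower, against 511 with library totals only, 571 in DESeq2, 1493 with the replicate block, 1558 with GC and length trends removed and 3039 with both, 200 with the authors' factors, 165 without both libraries numbered 1, 198 with a fold over 1.5 and 19 to 571 with each library left out.

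Of the licensing partners, 4 were lower, against 8 with the replicate block, 7 with GC and length trends removed, 9 with both and 1 to 6 with each library left out. Of the firing partners, 4 were lower, against 7 in DESeq2, 8 with the replicate block, 10 with the trends removed, 13 with both, 2 with the authors' factors and 0 to 5 with each library left out. Of the relicensing genes, 2 were lower, against 1 in limma-voom, with the authors' factors or without both libraries numbered 1, 4 with the replicate block, the trends removed or both, and 0 to 4 with each library left out. Of the G1/S genes, 6 were lower, against 1 to 6 with each library left out. Of the G2/M genes, 2 were lower, against 1 with DESeq2 size factors, limma-voom, the stricter filter of 50 counts, the authors' factors or without both libraries numbered 1, 0 with a fold over 1.5, 6 with the replicate block, 8 with the trends removed, 11 with both and 0 to 3 with each library left out. The CDT1 to GMNN ratio difference, 0.15, lay between -0.29 (without NT library 1) and 0.49 with each library left out and was -0.063 without OXA library 2, and the CDC6 to CDT1 difference, -0.20, lay between -0.49 and 0.23 (without NT library 1). Promoters with an E2F word were 3, not 6, before the start only. The causes of these changes were not tested.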
